A study of Homo sapiens with 6 samples.

Results

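The EGR, NR4A and KLF genes described here were 10 of the 54259 gene symbols in the deposited table, taken by name: EGR1, EGR2, EGR3, NR4A1, NR4A2, KLF2, KLF4, KLF5, KLF6 and KLF10. RNA-Sequence was performed in MDA-MB-231, a long-established line of human breast cancer cells. In 3 libraries, called shBry, the cells held a hairpin RNA directed at brachyury, and in the other 3, called shNC, they held a control hairpin. No further treatment or time point is given for either group. The sequence of the hairpin, the number of clones behind each line and whether libraries of a group came from separate cultures were not given in the sources used here, so p-values measure only the spread between these libraries, which may be technical. The values are reads counted on each gene, without normalization, and all 10 genes were listed with counts in every library.

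The 3 families encode transcription factors. EGR proteins are zinc finger proteins whose genes are classic immediate-early genes: they are switched on within minutes of a growth factor or stress signal, largely through serum response factor (SRF) and its ETS partners bound at CArG boxes, without new protein synthesis. NR4A proteins are orphan nuclear receptors that act without a known physiological ligand, and their genes respond to cAMP and calcium signals through CREB and MEF2. KLF proteins bind GC-rich and CACCC sequences with zinc fingers related to those of the SP proteins; KLF2 and KLF4 are known as targets of the MEF2 and ERK5 pathway, KLF6 and KLF10 respond to injury and TGF-beta signals, and KLF5 promotes proliferation in many epithelial cells.

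The shBry libraries held 19319411 to 22985371 counts each and the shNC libraries 19684251 to 21718591. Levels are given in CPM, a count scaled to the size of its library, and 3 counts, the upper limit that a count of 0 allows, stood for 0.131 to 0.155 CPM. Brachyury, listed under its older symbol T, had 0 counts in every library, so its knockdown could not be checked here. VIM, CD44, AXL, EGFR and CAV1, which MDA-MB-231 cells are known to express, summed to between 5013 and 5653 CPM in each library, and the luminal genes ESR1, PGR and CDH1 had at most 2 counts in any library. GATA3 and EPCAM, the other 2 of the 5 luminal markers, were detected in both groups, and EPCAM ranged from 3.66 to 5.01 CPM in shBry and from 0.962 to 1.89 in shNC. The 4 leukocyte markers summed to at most 0.108 CPM in any shBry library and 0.229 in any shNC library, with PTPRC and TYROBP at 0. The 4 fibroblast markers summed to 20.7 to 24.1 CPM in shBry and 19.4 to 23.6 in shNC, almost all of it COL1A1, with DCN at 0. The deposited design text calls the RNA pericardial, whereas the sample labels name MDA-MB-231 for every library.

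Promoter sequence is shown for EGR1, because it had the largest fold change of the 10 genes and carries the CArG boxes through which immediate-early genes are known to be induced. The 250 bases before its start, read from RefSeq at chr5:138465229-138465478 (GRCh38.p14, plus strand), are printed with 2 CArG boxes and 1 EGR site in capitals.
EGR1: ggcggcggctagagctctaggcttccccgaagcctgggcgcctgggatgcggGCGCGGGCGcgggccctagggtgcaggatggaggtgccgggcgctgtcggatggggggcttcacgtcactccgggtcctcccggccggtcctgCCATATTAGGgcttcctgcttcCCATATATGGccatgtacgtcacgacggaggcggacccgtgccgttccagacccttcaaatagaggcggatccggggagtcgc
The CArG boxes lay 105 to 96 and 83 to 74 bases before the start, and the EGR site, a possible binding site of EGR proteins themselves, lay 198 to 190 bases before it. RefSeq windows were given for 7 of the 10 genes, with 3 alternative starts for EGR2 and 2 each for NR4A1 and KLF5. None was given for EGR3, NR4A2 or KLF10, so motifs could not be sought in those genes. A CArG box was also found in 1 of the EGR2 windows, and an EGR site (GCGNGGGCG, on either strand) in the windows of KLF2, KLF4 and KLF6. Stretches of 30 bases around these matches, each written along the strand of its gene with the match in capitals, are shown to let the sites be compared.
EGR2, CArG box, chr10:62816418-62816447, minus strand: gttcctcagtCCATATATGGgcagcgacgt
KLF2, EGR site, chr19:16324576-16324605, plus strand: ggGCGGGGGCGgggcccgggagagggggag
KLF4, EGR site, chr9:107489939-107489968, minus strand: ggcccagcccCGCCCGCGCccctccttccc
KLF6, EGR site, chr10:3785255-3785284, minus strand: ggggagccagGCGGGGGCGgagggggaggc
Neither motif was found in the windows of NR4A1 or KLF5. Among 35116 RefSeq windows of the same length, a CArG box was present in 1.16% and an EGR site in 8.41%. GC content differed between the windows. It was 68.4% for EGR1, 80% for KLF2, 69.2% for KLF4 and 72.4% for KLF6, against a median of 58% over all windows. In the 3 EGR2 windows it was 54.8%, 78% and 66%, the last being that of the window with the CArG box. In NR4A1 it was 53.2% and 69.6%, and in KLF5 it was 40.8% and 70.8%. The cAMP response element (CRE, TGACGTCA) and the NR4A element NBRE (AAAGGTCA) were found in none of these 11 windows, and in 1.65% and 1.05% of all windows. The core TGACG, which a full CRE contains, occurred at 2 places each in the windows of EGR1 and KLF4 and in 1 of the EGR2 windows, at 1 place in 1 of the KLF5 windows, and in 21.2% of all windows. The GC box GGGCGG, which can overlap an EGR site, occurred in a window of each of the 7 genes except EGR1, at up to 4 places (KLF2, KLF4 and 1 window of EGR2), and in 42.6% of all windows. The CACCC box occurred in the windows of EGR1, KLF5 and NR4A1, in those of EGR2 except the window with the CArG box, and in 54.7% of all windows. A match of letters is a description and does not show that a factor was bound.

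Of the 10 genes, 7 were higher in shBry than in shNC cells and none was lower. None was lower at an unadjusted p below 0.05 either, nor by DESeq2 or limma-voom. All 3 EGR genes and 4 of the 5 KLF genes (KLF2, KLF4, KLF6 and KLF10) were called higher, with log2 fold changes (log2FC) between 1.26 and 3.50, while NR4A1, NR4A2 and KLF5 were not called. A gene was called at a Benjamini-Hochberg adjusted p below 0.05 over all tested genes and a fold change above 1.5, in edgeR's quasi-likelihood test of shBry against shNC. By this rule 32.4% of the 15277 tested genes were called, 17.1% higher and 15.2% lower, so calls were common in this comparison. The median log2FC over all tested genes was 0.03. RNA was taken from whole cultures, in which fewer cells of a type and less RNA per cell cannot be told apart. For 8 of the 10 genes the 3 shBry values did not overlap the 3 shNC values, which was so for 59.5% of all tested genes. Of the 10 genes, 8 lay above the expression filter of 0.466 CPM in every library, and 5 of these were called. EGR2 and EGR3 passed the filter through their shBry libraries, so they could hardly have been tested without being higher there, and their counts are given in full.

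**Figure D1:**
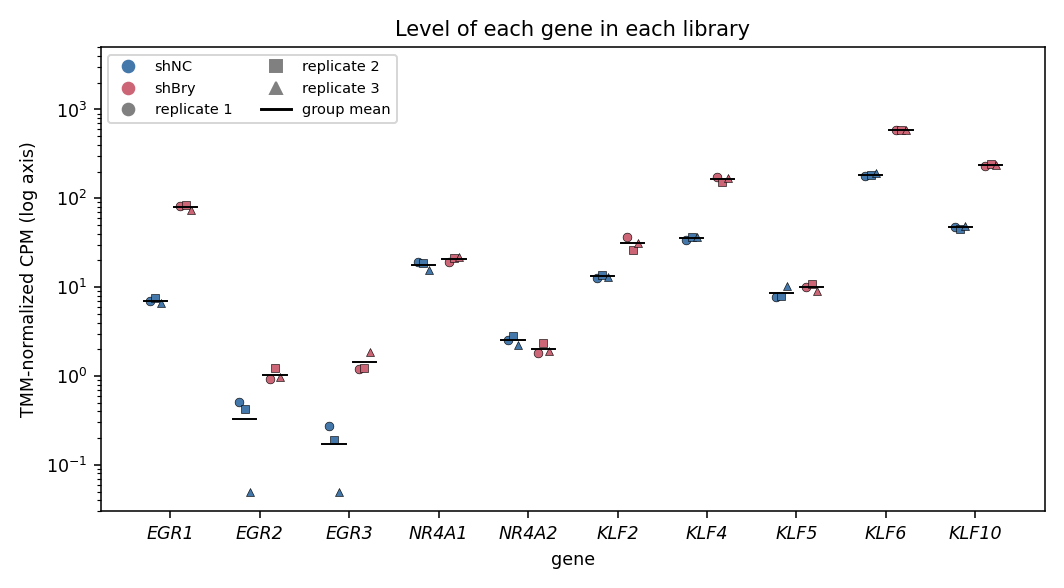
TMM-normalized CPM (log axis) of each of the 10 genes in each library, with shNC in blue, shBry in red, a marker shape for each replicate and a line at the group mean. The shBry points of EGR1, EGR2, EGR3, KLF2, KLF4, KLF6 and KLF10 lie above all their shNC points, those of NR4A1 do so by a small margin, and those of NR4A2 and KLF5 overlap.

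EGR1, an activator of growth factor, matrix and coagulation genes, had the largest change. Its gene, with 1 transcript in GENCODE 29, spans bases 138465490 to 138469315 of chromosome 5 (GRCh38, plus strand). Gene levels in CPM are scaled by TMM (trimmed mean of M values) throughout, whereas the expression filter and the CPM of 3 counts used library totals alone. The level of EGR1 was 81.6, 83.6 and 73.6 CPM in the shBry libraries, in the order of replicates 1, 2 and 3, which is kept for all genes. In the shNC libraries it was 7.01, 7.52 and 6.61 CPM. The lowest shBry library was thus far above the highest shNC library, and the group means were 79.6 ± 5.33 and 7.05 ± 0.454 CPM (SD, n = 3). The change was 11.3-fold with a 95% interval from 9.58 to 13.3, a log2FC of 3.50 (SE, standard error, 0.11, adjusted p = 1.4e-11, edgeR quasi-likelihood test).

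EGR2 and EGR3, the relatives of EGR1 best known from myelination, muscle spindles and lymphocytes, were near the limit of detection. EGR2, on chromosome 10 from 62811996 to 62919900, had 17, 29 and 22 counts in the shBry libraries, against 11, 9 and 1 counts in the shNC libraries. The groups did not overlap in CPM, but shNC replicate 1, with 0.504 CPM, was the nearest to shBry replicate 1, with 0.915. Its log2FC was 1.64 (SE 0.50, adjusted p = 0.013, edgeR quasi-likelihood test), with a 95% interval of 0.57 to 2.70. EGR3, on chromosome 8 from 22687659 to 22693302, had 22, 29 and 42 counts in the shBry libraries, against 6, 4 and 1 counts in the shNC libraries. The groups were further apart than for EGR2, with a log2FC of 2.99 (SE 0.48, adjusted p = 0.00012, same test) and a 95% interval of 1.97 to 4.02. An annotated gene on the opposite strand overlaps 3.38% of the exon bases of EGR3, and whether reads were counted by strand was not given in the sources used here. EGR4, the remaining EGR gene, had 26, 9 and 12 counts in shBry and 11, 7 and 6 in shNC, and was not called (log2FC 0.96, 95% interval -0.17 to 2.09, adjusted p = 0.14, same test). Without shBry replicate 2 it was called higher, with a log2FC of 1.28 (adjusted p = 0.041, same test).

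Among the KLF genes, KLF10, also known as TIEG1, a TGF-beta-inducible repressor of proliferation, rose most. It lies on chromosome 8 from 102648779 to 102655902 on the minus strand. It had 234, 242 and 239 CPM in the shBry libraries, against 47.4, 45.7 and 49.4 CPM in the shNC libraries. The replicates of each group were close together, and the change was 5.01-fold (95% interval 4.45 to 5.65), a log2FC of 2.33 (SE 0.08, adjusted p = 3e-11, edgeR quasi-likelihood test). KLF4, a regulator of epithelial differentiation and of pluripotency, lies on chromosome 9 from 107484852 to 107490482. It had 173, 153 and 168 CPM in the shBry libraries, against 33.7, 36.8 and 36.9 CPM in the shNC libraries. Each shBry library was far above every shNC library, a 4.59-fold change (95% interval 4.03 to 5.24) with a log2FC of 2.20 (SE 0.09, adjusted p = 1.6e-10, same test).

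KLF6, a widely expressed factor induced by injury, was the most abundant of the 10 genes in both groups. It lies on chromosome 10 from 3775996 to 3785281. It had 580.2, 580.4 and 589 CPM in the shBry libraries, against 178, 181 and 194 CPM in the shNC libraries. The shBry values differed little among themselves, and the change was 3.16-fold (95% interval 2.82 to 3.54), a log2FC of 1.66 (SE 0.08, adjusted p = 6e-10, edgeR quasi-likelihood test). KLF2, known for its response to blood flow in endothelial cells and for T cell quiescence, lies on chromosome 19 from 16324817 to 16327874. It had 36.8, 26.4 and 31.7 CPM in the shBry libraries, against 12.8, 13.8 and 13.1 CPM in the shNC libraries. Its shBry values were the more scattered, with shBry replicate 2 the lowest, and the change was 2.39-fold (95% interval 1.96 to 2.92), a log2FC of 1.26 (SE 0.13, adjusted p = 2.8e-06, same test). Of the 10 genes, only EGR3 and NR4A1 have exon bases overlapped by another gene of GENCODE 29, and only NR4A1 shares stretches of 50 bases with transcripts of other genes (0.398% of its stretches).

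KLF5 was the exception among the 5 KLF genes. It lies on chromosome 13 from 73054976 to 73077542 on the plus strand. It had 10.1, 10.8 and 9 CPM in the shBry libraries, against 7.65, 7.99 and 10.4 CPM in the shNC libraries. The groups overlapped, through shNC replicate 3, and the log2FC was 0.20 (SE 0.16, adjusted p = 0.31, edgeR quasi-likelihood test). The 95% interval of -0.14 to 0.54 holds no change above 1.5-fold, and it ends below the lower bounds of the 4 other KLF genes, the nearest being 0.97 for KLF2, although the difference between genes was not itself tested.

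The NR4A genes were not called. NR4A1, which encodes the receptor Nur77, had 19.4, 21.5 and 22 CPM in the shBry libraries, against 19.1, 18.6 and 15.5 CPM in the shNC libraries. It lies on chromosome 12 from 52022832 to 52059507, and a gene on the opposite strand overlaps 10.3% of its exon bases. All shBry values were above all shNC values, by a small margin, and the log2FC was 0.24 (SE 0.12, adjusted p = 0.12, edgeR quasi-likelihood test), with a 95% interval of -0.03 to 0.51. NR4A2, which encodes Nurr1, a factor of dopamine neurons, lies on chromosome 2 from 156324432 to 156342348. It had 1.83, 2.36 and 1.91 CPM in the shBry libraries, against 2.52, 2.79 and 2.25 CPM in the shNC libraries. It was the only one of the 10 genes with a lower mean in shBry, but its groups overlapped and the log2FC of -0.31 had a 95% interval of -0.81 to 0.20 (adjusted p = 0.29, same test). NR4A3, the third receptor, had 8, 16 and 12 counts in shBry and 4, 10 and 11 in shNC, a log2FC of 0.46 (95% interval -0.56 to 1.48, adjusted p = 0.43, same test). For NR4A3 and EGR4 the intervals reach past a 2-fold rise, so a change of that size lies within the error at this depth. The interval of NR4A1 ends below the lower bounds of EGR1, KLF2, KLF4, KLF6 and KLF10, again without a test of the difference. EGR2 and EGR3 are left out of this comparison, because they passed the expression filter through their shBry libraries.

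**Figure D2:**
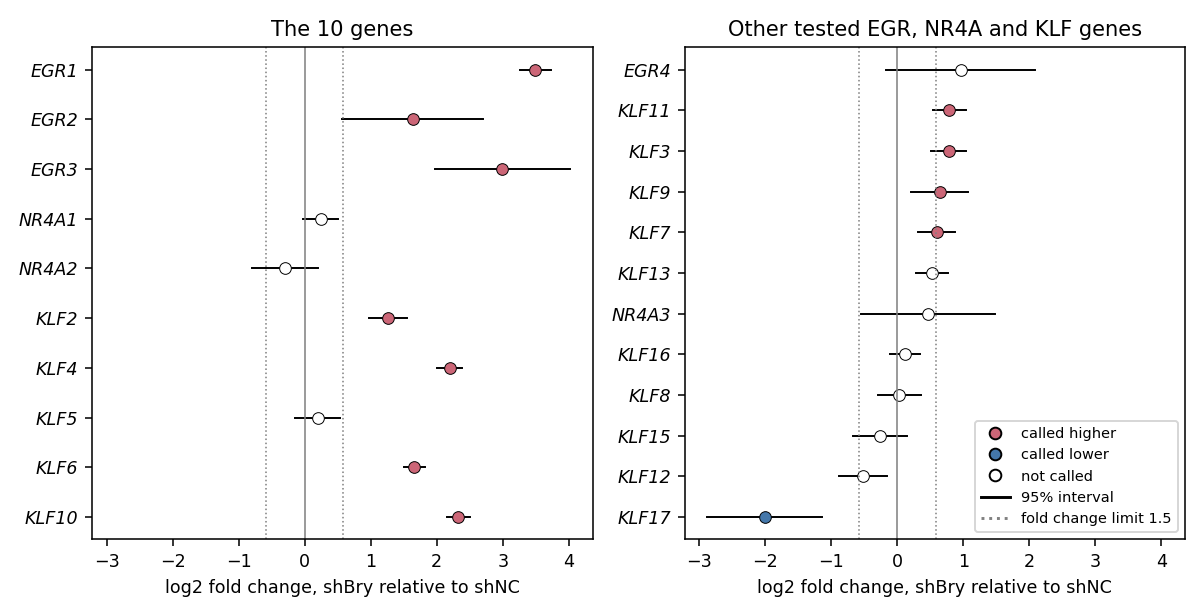
Log2FC of shBry relative to shNC for the 10 genes (left) and for the other tested EGR, NR4A and KLF genes (right), with 95% intervals, filled points for called genes and dotted lines at the fold change limit of 1.5. The 7 called genes on the left lie between 1.26 and 3.50, and the 4 KLF genes called higher on the right lie between 0.59 and 0.79.

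To compare levels between genes, CPM were divided by the length of the merged exons in kilobases. In shNC the order of these levels was KLF6 (30.1 ± 1.42 CPM per kilobase, SD, n = 3), KLF10 (11.9 ± 0.47), KLF4 (9.79 ± 0.497), KLF2 (6.55 ± 0.26), NR4A1 (2.43 ± 0.264), EGR1 (2.25 ± 0.145), KLF5 (2.23 ± 0.381), NR4A2 (0.636 ± 0.0674), EGR2 (0.0885 ± 0.0658) and EGR3 (0.0353 ± 0.0234). NR4A1, EGR1 and KLF5 did not differ beyond their spread there, nor did EGR2 and EGR3. In shBry the first 3 places were the same, with KLF6 at 95 ± 0.847, KLF10 at 59.5 ± 1.06 and KLF4 at 44.9 ± 2.91 CPM per kilobase. EGR1 took the fourth place at 25.4 ± 1.7, above KLF2 at 15.7 ± 2.59, while NR4A1 (2.87 ± 0.188) and KLF5 (2.55 ± 0.227) remained near the levels they had in shNC. EGR2 and EGR3, at 0.281 ± 0.0441 and 0.293 ± 0.0785, did not differ beyond their spread and were still below NR4A2 at 0.512 ± 0.0722. By this measure EGR1 moved from the level of NR4A1 to well above it. EGR2 and EGR3 stayed at the bottom of the order in spite of their fold changes. The measure depends on annotated length, which was 7.295 kilobases for NR4A1, merged from 22 transcripts, and 3.138 for EGR1, from 1. Before this division NR4A1 was above EGR1 in shNC (17.7 against 7.05 CPM) and below it in shBry (20.9 against 79.6 CPM).

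**Figure D3:**
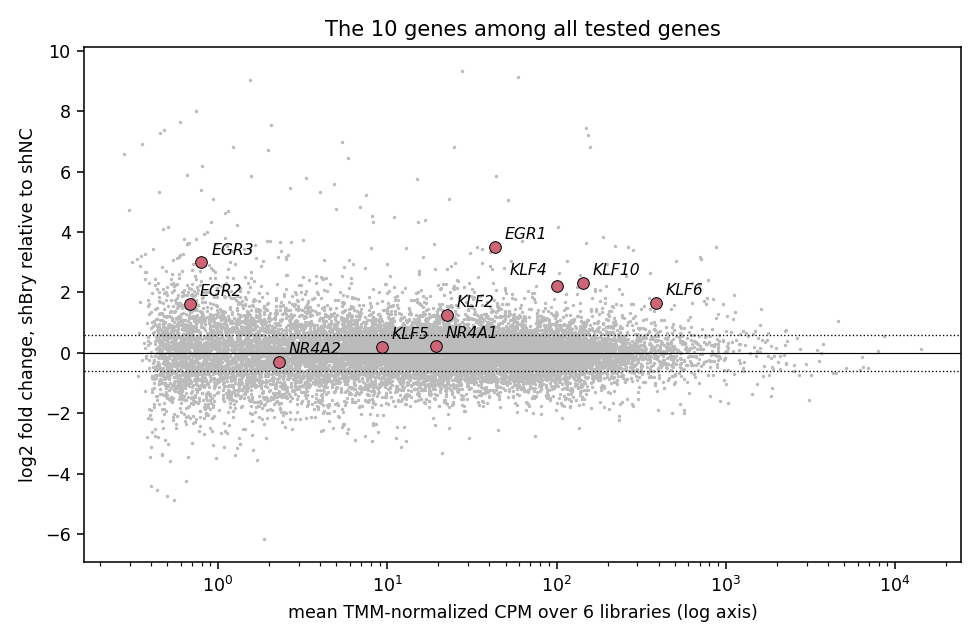
Log2FC of shBry relative to shNC against mean TMM-normalized CPM over the 6 libraries (log axis) for all tested genes (grey) and the 10 genes (red), with dotted lines at the fold change limit of 1.5. EGR1, at a log2FC of 3.50, has the largest change of the 10, while NR4A1, NR4A2 and KLF5 lie between the dotted lines.

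Of the 14 other genes of these families, 12 were tested and 5 were called, 4 higher and 1 lower, with a median log2FC of 0.49 against 0.03 for all tested genes. The share called was 41.7%, against 32.4% of all tested genes. KLF11, the closest relative of KLF10, rose from 18.8 ± 1.63 to 32.4 ± 2.93 CPM (SD, n = 3), with log2FC of 0.79 (95% interval 0.53 to 1.04, adjusted p = 6.6e-05, edgeR quasi-likelihood test). KLF3, a repressor that recruits the CtBP proteins, rose from 19.9 ± 1.64 to 34.1 ± 4.66 CPM, a log2FC of 0.78 (adjusted p = 0.00012, same test). KLF9, a glucocorticoid- and thyroid hormone-responsive gene, rose from 4.62 ± 0.888 to 7.19 ± 1.49 CPM, with a log2FC of 0.64 (adjusted p = 0.015, same test). KLF7 rose from 14.2 ± 0.579 to 21.4 ± 2.98 CPM, with a log2FC of 0.59 (adjusted p = 0.0015, same test), just past the fold change limit of 0.58 on the log2 scale. KLF9 and KLF7 were not called without shNC replicate 1, with 3 of the 12 genes then called, nor without shBry replicate 2, and KLF7 was also not called without shNC replicate 3. KLF17 was the gene called lower, with 6, 11 and 5 counts in shBry and 36, 20 and 31 in shNC, a log2FC of -2.01 (adjusted p = 0.00081, same test). It passed the expression filter through its shNC libraries, so it could hardly have been tested without being lower in shBry. Of the 9 genes above the filter in every library, 4 were called, and these are the 4 genes called higher.
KLF13 and KLF12 had adjusted p of 0.0012 and 0.02 in the same test but log2FC values of 0.53 and -0.52, short of the limit, though KLF12 was called lower without shBry replicate 2 (-0.71) or shNC replicate 2 (-0.60). KLF8, KLF15 and KLF16 were not called, with log2FC values of 0.03, -0.26 and 0.12. KLF1 and KLF14 had too few counts to be tested. Of 9 SP genes, whose products bind the same GC-rich sites as KLF proteins, 6 were tested and 2 were called, both lower. That is 33.3%, near the 32.4% of all tested genes. The called genes were SP5, with a log2FC of -0.93 (adjusted p = 0.00076, same test), and SP6, with -0.80 (adjusted p = 5.8e-05, same test). SP1, the ubiquitous member, was not called, with a log2FC of -0.15, and SP4 was called higher only without shBry replicate 1 (0.60).

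The genes that act on these families were examined next. Of 19 genes of upstream factors and kinases, all tested, 3 were called, 1 higher and 2 lower, and the median log2FC was 0.01. With 15.8% called, this list lay below the 32.4% of all tested genes. CREM, a cAMP-responsive relative of CREB, rose from 18.6 ± 1.05 to 34.1 ± 3.84 CPM (log2FC 0.88, adjusted p = 2.5e-05, edgeR quasi-likelihood test). MKL2, a coactivator of SRF now called MRTFB, fell from 15.3 ± 1.94 to 8.58 ± 2.43 CPM (log2FC -0.83, adjusted p = 0.0017, same test). RPS6KA4, which encodes the kinase MSK2, had a log2FC of -0.63 (adjusted p = 3.8e-05, same test). SRF itself was at 220 ± 7.68 CPM in shBry and 171 ± 9.63 in shNC, a log2FC of 0.36 (adjusted p = 0.0014, same test), under the fold change limit. Without shBry replicate 1, 5 of the 19 genes were called, ELK4 (log2FC 0.59) and MAPK7 (-0.61) being added, and MAPK7 was also called without shNC replicate 3 (-0.64).
Of 16 genes of partners, co-repressors and degradation factors, 15 were tested, with 3 called higher and 1 lower and a median log2FC of 0.26. These calls made up 26.7% of the list, also below the 32.4% of all tested genes. RXRB was added without shBry replicate 3, with a log2FC of 0.72. SMURF1, a ubiquitin ligase, had a log2FC of 0.94, EP300, an acetyltransferase and coactivator, 0.74, CTBP2, a co-repressor that KLF3 recruits, 0.64, and HDAC1, a histone deacetylase, -0.77. NAB1 and NAB2, the co-repressors that bind EGR proteins, were not called, with log2FC values of -0.06 and 0.26. The 95% interval of NAB2, itself a known EGR target, was 0.02 to 0.50 (adjusted p = 0.063, same test).

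Most genes of a list of immediate-early genes outside the 3 families were also higher in shBry. Of 36 such genes, 35 were tested and 28 were called, all of them higher in shBry, against 17.1% of all tested genes called higher. The median log2FC of the list was 1.24, and 26 of the 33 genes above the expression filter in every library were called. GADD45A, a growth arrest gene, had 398, 293 and 367 CPM in shBry and 26.8, 23.5 and 24.6 in shNC, a log2FC of 3.82 (adjusted p = 1.3e-11, edgeR quasi-likelihood test). PTGS2, which encodes cyclooxygenase 2, had 53, 137 and 121 counts in shBry and 10, 5 and 16 in shNC, a log2FC of 3.23 (95% interval 2.42 to 4.05, adjusted p = 7e-06, same test), and it passed the expression filter through its shBry libraries. PPP1R15A, also known as GADD34, which encodes a regulatory subunit that directs dephosphorylation of the initiation factor eIF-2 alpha, had 1447, 1156 and 1243 CPM in shBry and 143, 148 and 152 in shNC, a log2FC of 3.12 (adjusted p = 1.3e-11, same test). The other called genes had log2FC values between 0.60 and 3.05, the latter for ATF3. The AP-1 genes FOS and JUN, named after their values were seen because they are induced with EGR1 in textbook accounts, also rose, with log2FC values of 1.07 and 1.09. Not called were ZFP36L2, SRF, JUND, CTGF, IER5, DUSP6 and FOSL1, whose log2FC values lay between -0.07 and 0.49. IER3 had at most 1 count in any library and was not tested. The list of these genes was written with results of this comparison known, so its count is a description.

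**Figure D4:**
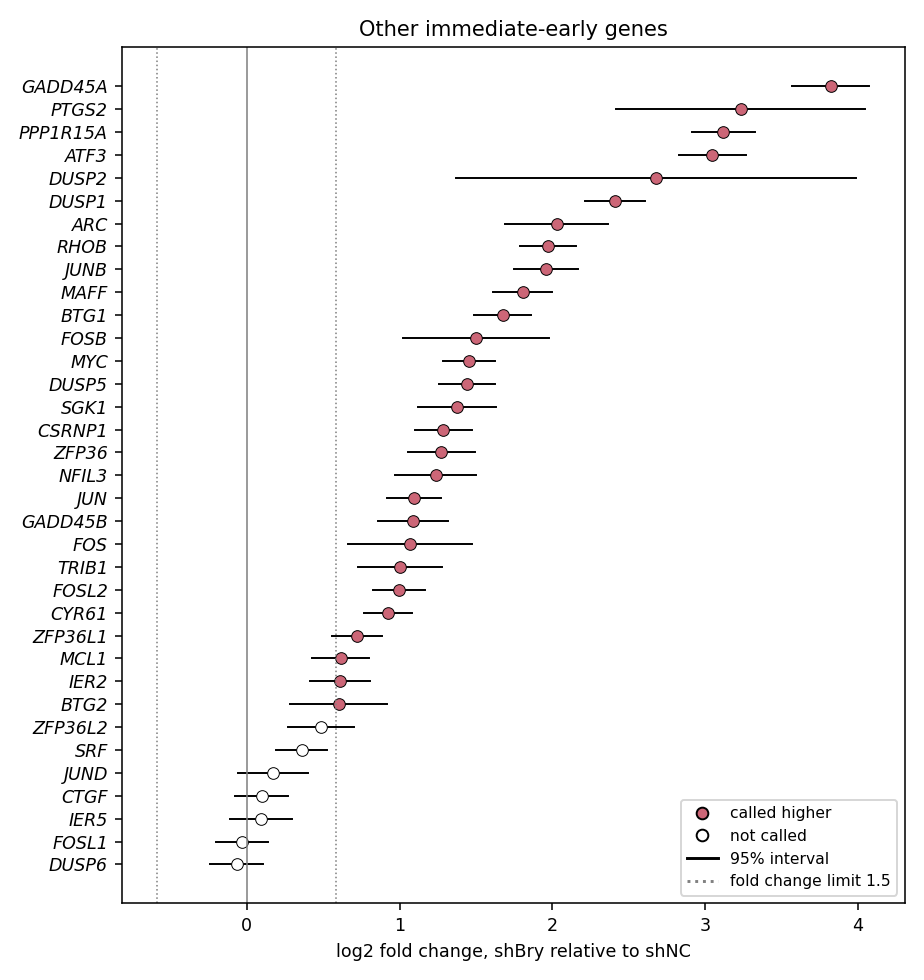
Log2FC of shBry relative to shNC for the 35 tested immediate-early genes outside the EGR, NR4A and KLF families, with 95% intervals, red points for genes called higher and dotted lines at the fold change limit of 1.5. GADD45A stands first at 3.82, and the 7 genes not called lie between -0.07 and 0.49.

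Genes reported in the literature as targets of these factors were also examined. The lists of EGR and KLF targets were written with earlier results of these data known, so their counts are descriptions. Of 18 reported EGR targets, 17 were tested and 8 were called, 6 higher and 2 lower, with a median log2FC of 0.41. Called genes were thus 47.1% of this list, against 32.4% of all tested genes. Of the 16 genes above the expression filter in every library, 7 were called. GDF15, a stress-induced cytokine, had 216, 217 and 252 counts in shBry and 4, 1 and 0 in shNC, and passed the filter through shBry. VEGFA, an angiogenic factor, had 361, 339 and 372 CPM in shBry and 58.6, 61.7 and 57 in shNC, a log2FC of 2.60 (adjusted p = 1.4e-11, edgeR quasi-likelihood test). CDKN1A, which encodes the kinase inhibitor p21 and stands in both target lists, had a log2FC of 2.13 (adjusted p = 2.5e-10, same test). PDGFA, PDGFB, FN1 and THBS1 were among the genes not called.
Of 15 reported KLF targets, 14 were tested and 11 were called, 9 higher and 2 lower, with a median log2FC of 0.79. This was 78.6% of the tested genes of a list chosen with results known, against 32.4% of all tested genes. Of the 13 genes above the expression filter in every library, 10 were called. TXNIP, an inhibitor of thioredoxin, had 1429, 1790 and 1610 CPM in shBry and 139, 155 and 136 in shNC, a log2FC of 3.49 (adjusted p = 6.2e-12, same test), close to that of EGR1. KRT19, an epithelial keratin, had 7, 9 and 11 counts in shBry and 32, 37 and 23 in shNC, a log2FC of -1.80 (adjusted p = 0.00068, same test), and it passed the filter through shNC. LAMA1 was called with an adjusted p of 0.045 in the same test, but not with DESeq2 (0.066), without TMM (0.06), or when shBry replicate 1, shNC replicate 1 or shNC replicate 3 was left out. BIRC5, the other gene called lower, had a log2FC of -1.64. CDH1 had at most 2 counts in any library and was not tested.

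The gene with the most similar pattern was sought for each of the 10 genes, as the smallest distance over the 6 libraries between log2 CPM measured from the shNC mean of the gene. EGR1 was nearest to LIF, which encodes a cytokine of the interleukin 6 family (distance 0.188 on the log2 scale, log2FC of LIF 3.42). KLF10 was nearest to TNFAIP3, a feedback inhibitor of NF-kappa-B (0.171), KLF4 to XBP1, a factor of the unfolded protein response (0.185), KLF6 to the protein kinase C gene PRKCE (0.078) and KLF2 to CHMP4A (0.111). NR4A1 was nearest to HILPDA (0.101), NR4A2 to SPEG (0.106) and KLF5 to ZNF320 (0.0811). EGR2 and EGR3 had no gene as near, with distances of 0.609 to DKFZP434K028 and 0.485 to LOC105377495, and they were also the 2 genes with the fewest counts. With 2 groups of 3 libraries, this likeness rests mainly on the size of the difference between the groups.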

How the data were processed

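For 3 shBry and 3 shNC libraries, the authors deposited raw counts of reads per gene symbol, one column per library, with no normalization. The submitters' processing notes name HISAT2 2.0.4, HTSeq and GRCh38; the annotation, strand setting and statistical tool were not given in the sources used here, and the labels state a p of 0.05 and a fold change of 1.5. Samples were grouped by the shRNA label. Libraries of a group differed by more than sampling noise (chi-square per degree of freedom 5.00 to 16.8), so none was a copy of another.

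Genes were filtered with filterByExpr (minimum count 10), scaled by TMM and tested in R 4.3.3 with edgeR 4.0.16 (glmQLFit and glmQLFTest, the quasi-likelihood test; limma 3.58.1), with Benjamini-Hochberg adjustment over 15277 genes. The standard error is the log2 fold change divided by the square root of F. Limits from counts cover counting error only. In simulated counts of this comparison over 15226 genes, 180 of 196 changed genes (91.8%) were recovered and 4 unchanged genes were called. Far fewer genes were changed there than the 4945 called in the data, and recovery at that share was not tested. The sizes of the changes are not given here, so recovery near the fold change limit of 1.5 cannot be read from these counts.

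Locations, exon overlaps, shared stretches and merged exon lengths came from GENCODE 29 (GRCh38), in which all 10 symbols matched. Promoter windows came from RefSeq (GRCh38.p14). Both strands were searched.

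Genes named were the 10 genes; other family genes whose mean reached 1 CPM; in each other list every called gene, or the 3 largest changes at 1 CPM or more where over 6 were called; and the nearest gene by pattern. The remaining names were chosen after their values were seen. Some genes of the list of reported EGR targets are not reported here. The genes and lists were chosen with earlier results of these data known. Alternatives were other scalings, DESeq2 1.42.0, limma-voom, 2 other filters, unadjusted p, other fold change limits, a replicate block and each library left out.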

Additional observations from a re-analysis of the deposited data

How the results depend on the processing

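The 10 log2 fold changes kept their sign and their side of the call in each alternative that tested them, including DESeq2, limma-voom and other scalings. All 7 genes were called in each alternative except the filter of at least 10 counts in every library, which removed EGR2 and EGR3 and left 5. With each library left out in turn, 7 genes were called throughout, 5 of them above the expression filter in every library. The other 2, EGR2 and EGR3, passed that filter through their shBry libraries, so their repeated calls say little. The EGR2 log2 fold change ranged from 1.13 to 2.08 (adjusted p up to 0.047, edgeR) and that of EGR3 from 2.56 to 3.49. Over all genes, 4945 were called, 2297 with a fold change limit of 2, 8139 with none, and 4587 to 5025 with a library left out. Of the other family genes, 3 to 6 were called with a library left out, and of the upstream genes 3 to 5. BTG2, KLF7, IER2, MCL1 and SMAD7 lay close to the fold change limit and were lost under some scalings or left-out libraries. With the replicate number as a block, 4914 genes were called, and 7 of the 10, while LAMA1 was lost (adjusted p = 0.052, edgeR). The numbers did not pair the libraries: deviations from the group mean correlated at 0.183, -0.084 and -0.0282 for replicates 1, 2 and 3, and while shBry and shNC replicate 1 correlated best with each other, shBry replicate 2 and shNC replicate 3 did so too, at 0.227. Counts of at most 42 per library limited EGR2, EGR3, EGR4 and NR4A3.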
